A study of Staurois parvus with 11 samples.

Results

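Axon guidance ligands and receptors were followed in the brain, spinal cord and leg muscle of Staurois parvus, a Bornean frog in which males signal to rivals by stretching and waving a hind leg. Members were the count rows whose annotated gene name begins with the name of a semaphorin, plexin, netrin, UNC5 receptor, Slit, Robo receptor, ephrin, Eph receptor or repulsive guidance molecule. This rule used names only and no measured value, and found 46 rows of 41 gene IDs, under 32 gene names, among 23777 rows of 19455 gene IDs. Of the 46 rows, 20 are of ligands and 25 of receptors. The remaining row is UNC50, which matches the rule by its letters alone, as its protein belongs to the Golgi and not to the netrin receptors. Neuropilins, DCC and draxin were sought by the same rule, but no count row carried their names, so they could not be followed.

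Growing axons are steered by secreted and membrane-bound cues that attract or repel the growth cone. Semaphorins act through plexins, netrins through DCC and UNC5 receptors, Slits through Robo receptors, ephrins through Eph receptors, and repulsive guidance molecules through neogenin. The same families remain in use in adult tissue, at synapses, in glia, and in the walls of blood vessels.

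Bulk RNA was sequenced from adult males of a captive colony, with no treatment or genetic change in any group. The 11 libraries came from brain (2), spinal cord (4) and thigh, called leg muscle here (5), and were made from tissue kept in RNAlater with a stranded kit that selects polyadenylated RNA. The labels call the libraries biological replicates but name no frog, so p-values measure the spread between these samples, and which tissues came from 1 animal is not given. Every level below is in CPM, the counts of a transcript per 1e+06 counts of its library after TMM normalization. TMM scales the libraries on the assumption that most transcripts do not differ. Means are given ± SD, with n = 2 for brain, n = 4 for cord and n = 5 for muscle.

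The libraries held between 12339432 counted reads, in a spinal cord library, and 56082082, in one of leg muscle, and 3 reads, the most that a count of 0 allows, stood for 0.0841 to 0.228 CPM. The labelled tissues carried their markers. Summed levels of 5 neuronal marker transcripts were 2495 to 2695 CPM in brain, 3779 to 5874 in spinal cord and 2.93 to 16.7 in leg muscle, while those of 57 muscle fibre rows were 257540 to 632270 CPM in leg muscle, 53.0 to 219 in brain and 58.3 to 1800 in spinal cord. Leg muscle library 5 stood apart, with 22063 CPM of fibroblast markers against 895 to 3445 in the other 4. Lane 2 of the sequencer held spinal cord libraries 1 and 2, and lane 1 held the rest. In bulk tissue, fewer cells of a type and less RNA per cell cannot be told apart.

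Of the 46 rows, 43 passed the filter on low counts and were tested among 13923 transcripts. A row is called a differentially expressed gene (DEG) where edgeR's quasi-likelihood test gave an adjusted p under 0.05, and Log2FC is the log2 ratio of the first tissue named over the second. In brain against leg muscle, 23 members were DEGs (53.5%, against 50.7% of all transcripts), with 17 higher in brain (39.5%, against 28.7%) and 6 lower (14.0%, against 21.9%). In leg muscle against spinal cord, 24 were DEGs (55.8%, against 55.6%), with 8 higher in leg muscle (18.6%, against 25.7%) and 16 lower (37.2%, against 29.9%). The share of DEGs among the members was thus near that of all transcripts. Without either brain library, fewer members were DEGs in brain against leg muscle, but 1 library then stands for the brain. The share of all transcripts in those fits is not given here. They therefore cannot show whether members depend on 1 brain library more than other transcripts do. In brain against spinal cord 0 of the 43 was a DEG, against 2.03% of all transcripts (1.19% higher in brain and 0.84% lower). Libraries did not overlap for 28 members in brain against leg muscle (59.3% of all transcripts) and for 19 in leg muscle against spinal cord (46.1%). By gene name, the brain and leg muscle DEGs came to 15 and 3 names, and the leg muscle and spinal cord DEGs to 4 and 14.

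The median Log2FC of the members was 0.74 for brain over leg muscle, against 0.11 over all transcripts, and -1.04 for leg muscle over spinal cord, against -0.10. Median absolute Log2FC was 1.59 against 1.37 and 1.53 against 1.23 in the same order. Members fell into a few patterns. There were 14 rows lower in leg muscle than in either nervous tissue, 6 higher in leg muscle than in either, and 16 that were a DEG in no comparison. How many of all transcripts show each pattern is not given here, so these numbers describe the members only and cannot be set against a background. Those higher in leg muscle than in either were SEMA3B, EPHB4 and the Plxnd1 rows, which carry consecutive IDs. The other 7 were EFNB2, EPHB5 and Ephb1, higher in brain than leg muscle alone, Plxnb3 and unc5b-b, higher in spinal cord than leg muscle alone, and EPHA2 with 1 Epha2 row, higher in leg muscle than spinal cord alone. Every count with leg muscle depended on the scaling. TMM assumes that most transcripts do not differ. After it, 50.7% of all transcripts were DEGs in brain against leg muscle, and 55.6% in leg muscle against spinal cord. With library totals alone in place of TMM, the median Log2FC of all transcripts moved by 1.86 for brain over leg muscle and by -1.85 for leg muscle over spinal cord. The member counts became 29 and 0 against brain, and 0 and 31 against spinal cord. Of all 13923 transcripts, 8805 were then higher in brain and 930 in leg muscle. Against spinal cord, 923 were higher in leg muscle and 9493 in spinal cord. The member counts thus moved with those of all transcripts.

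**Figure D1:**
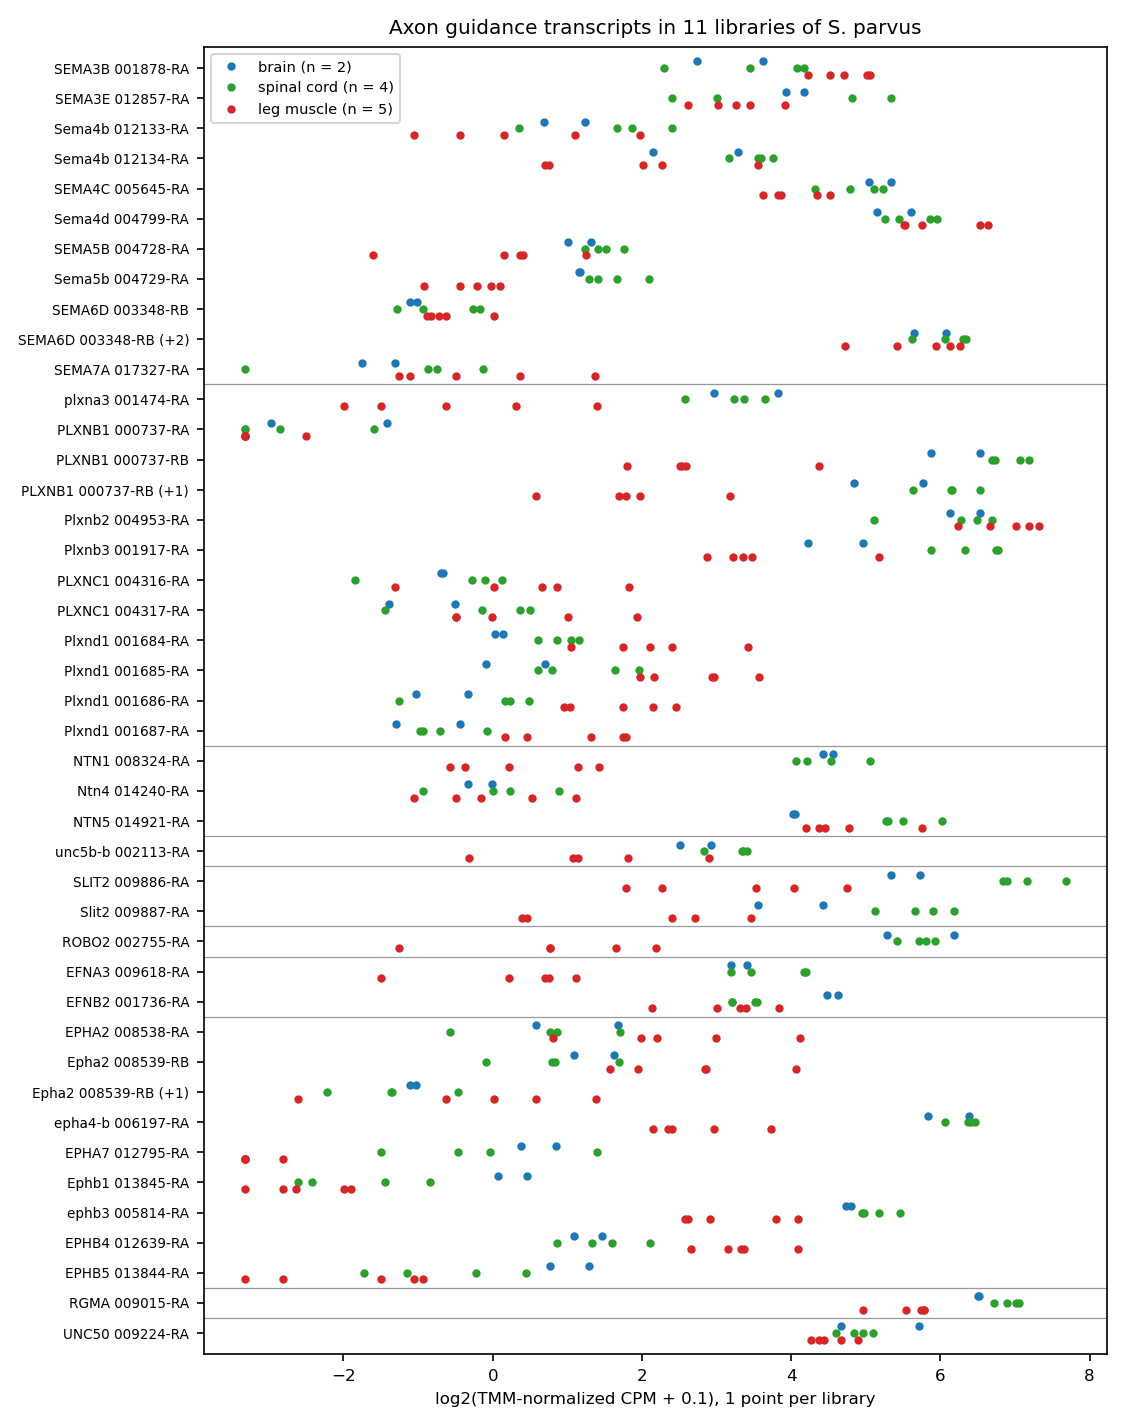
Levels of the 43 tested members in each library, as log2(TMM-normalized CPM + 0.1), with 1 point per library in blue for the 2 of brain, green for the 4 of spinal cord and red for the 5 of leg muscle, and lines between families. ROBO2, NTN1 and epha4-b sit far to the right in brain and spinal cord, whereas the 4 Plxnd1 rows sit to the right in leg muscle. With library totals alone, none of these 4 rows was a DEG against spinal cord. Their Log2FC for leg muscle over spinal cord was then -0.39, -0.38, 0.0063 and 0.19 in order of ID.

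SLIT2 and ROBO2 were highest in nervous tissue. SLIT2 (009886-RA), a secreted repellent best known from the ventral midline, was at 53.0 and 40.2 CPM in the brain libraries, 205, 114, 143 and 118 in those of spinal cord, and 3.35, 4.71, 16.3, 11.4 and 26.9 in those of leg muscle. No library of 1 tissue overlapped with those of another, and the order was spinal cord, brain, leg muscle. Between brain and spinal cord SLIT2 was not a DEG (adjusted p = 0.33 in edgeR). Means were 46.6 ± 9.05, 145 ± 42.0 and 12.5 ± 9.58 CPM. Log2FC was -3.53 (SE 0.54) for leg muscle over spinal cord, with adjusted p = 0.00017 in edgeR, and 1.89 (SE 0.59) for brain over leg muscle, with adjusted p = 0.019.

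Another row with the same name and the next ID, Slit2 (009887-RA), kept the same order, at 16.5 ± 6.87 CPM in brain, 54.4 ± 15.9 in spinal cord and 5.02 ± 4.05 in leg muscle. Its reads were 0.353 of those of 009886-RA over the brain libraries, 0.373 over those of spinal cord and 0.406 over those of leg muscle. Whether the 2 rows are parts of 1 gene is not given in the sources used here, and they are not counted as independent results. ROBO2, a receptor for Slits, was at 72.2 and 39.0 CPM in brain, 42.6, 52.3, 61.0 and 56.0 in spinal cord, and 1.60, 0.318, 3.05, 1.61 and 4.46 in leg muscle. Brain and spinal cord overlapped and leg muscle lay below both, with Log2FC of 4.64 (SE 0.59, adjusted p = 5.9e-05 in edgeR) for brain over leg muscle and -4.57 (SE 0.55, adjusted p = 2.8e-05) for leg muscle over spinal cord.

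The brain side of the Slit result was less firm than the spinal cord side. Without brain library 1 or 2, SLIT2 for brain over leg muscle had Log2FC 1.63 and 2.04, with adjusted p = 0.12 and 0.052 in edgeR. Slit2 (009887-RA) had Log2FC 1.71 and adjusted p = 0.048 in edgeR with all libraries, and passed 0.05 with no library but leg muscle library 5 left out, its adjusted p lying at 0.053 to 0.32 otherwise. Both Robo3 rows stayed out of the test for low counts. Robo3, a divergent Robo receptor of commissural axons, had 54 and 23 reads over the 5 leg muscle libraries, 3 and 1 over the 4 of spinal cord, and 2 and 2 over those of brain. Without the filter, Log2FC for leg muscle over spinal cord was 4.06 and 4.17, with adjusted p = 0.012 and 0.019 in edgeR. For brain over leg muscle it was -4.00 and -2.83, and neither row passed (adjusted p = 0.055 and 0.17 in edgeR). These ratios rest on the few reads of nervous tissue given above, and no counting interval was made for them.

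Of the 3 netrins, NTN1 alone was a DEG between nervous tissue and leg muscle. NTN1, the netrin that attracts commissural axons to the ventral midline, was at 21.4 and 23.6 CPM in brain, 16.6, 18.4, 33.3 and 23.2 in spinal cord, and 1.07, 0.572, 0.670, 2.58 and 2.11 in leg muscle. Every leg muscle library lay below every library of brain and spinal cord, which overlapped each other. Log2FC was 3.97 (SE 0.49) for brain over leg muscle, with adjusted p = 4.3e-05 in edgeR, and -4.00 (SE 0.45) for leg muscle over spinal cord, with adjusted p = 1.6e-05. Ntn4, a netrin of basement membranes, was at 0.797 ± 0.140, 1.04 ± 0.553 and 1.04 ± 0.677 CPM in brain, spinal cord and leg muscle, and was a DEG in no comparison.

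NTN5 was at 16.2 and 16.4 CPM in brain, 44.9, 38.5, 39.3 and 64.7 in spinal cord, and 20.7, 53.9, 18.2, 27.2 and 21.7 in leg muscle. Brain lay below both other tissues without overlap, but Log2FC was -1.52 (SE 0.45) over spinal cord, with adjusted p = 0.13 in edgeR, and -0.79 (SE 0.42) over leg muscle, with adjusted p = 0.13. The receptor unc5b-b, which in mammals mediates repulsion by netrin and is also found in vessels, was at 7.53 and 5.58 CPM in brain, 10.5, 10.1, 10.1 and 7.03 in spinal cord, and 3.42, 0.699, 2.01, 2.12 and 7.37 in leg muscle. Leg muscle library 5 reached into the range of spinal cord, and Log2FC for leg muscle over spinal cord was -1.59 (SE 0.51, adjusted p = 0.021 in edgeR). Without both lane 2 libraries, adjusted p was 0.11.

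RGMA, a membrane-anchored repellent, was at 91.7 and 90.8 CPM in brain, 130, 133, 119 and 105 in spinal cord, and 31.1, 53.3, 54.9, 54.7 and 46.2 in leg muscle. All 3 tissues were apart, in the order spinal cord, brain, leg muscle. RGMA was not a DEG between brain and spinal cord, with Log2FC -0.41 (SE 0.27, adjusted p = 0.56 in edgeR). Of all transcripts, 26.2% had no overlap between these 2 tissues. Log2FC was -1.34 (SE 0.20) for leg muscle over spinal cord, with adjusted p = 0.00017 in edgeR, and 0.92 (SE 0.24) for brain over leg muscle, with adjusted p = 0.0079, which became 0.068 and 0.059 without brain library 1 or 2. Its receptor neogenin (Neo1), which was picked after its values were seen, had 176 ± 27.6, 204 ± 30.8 and 120 ± 38.4 CPM in brain, spinal cord and leg muscle. Neo1 was higher in spinal cord than in leg muscle by a Log2FC of -0.77 for leg muscle over spinal cord (SE 0.27, adjusted p = 0.030 in edgeR), and leg muscle library 5, at 160 CPM, overlapped with spinal cord library 1, at 158.

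**Figure D2:**
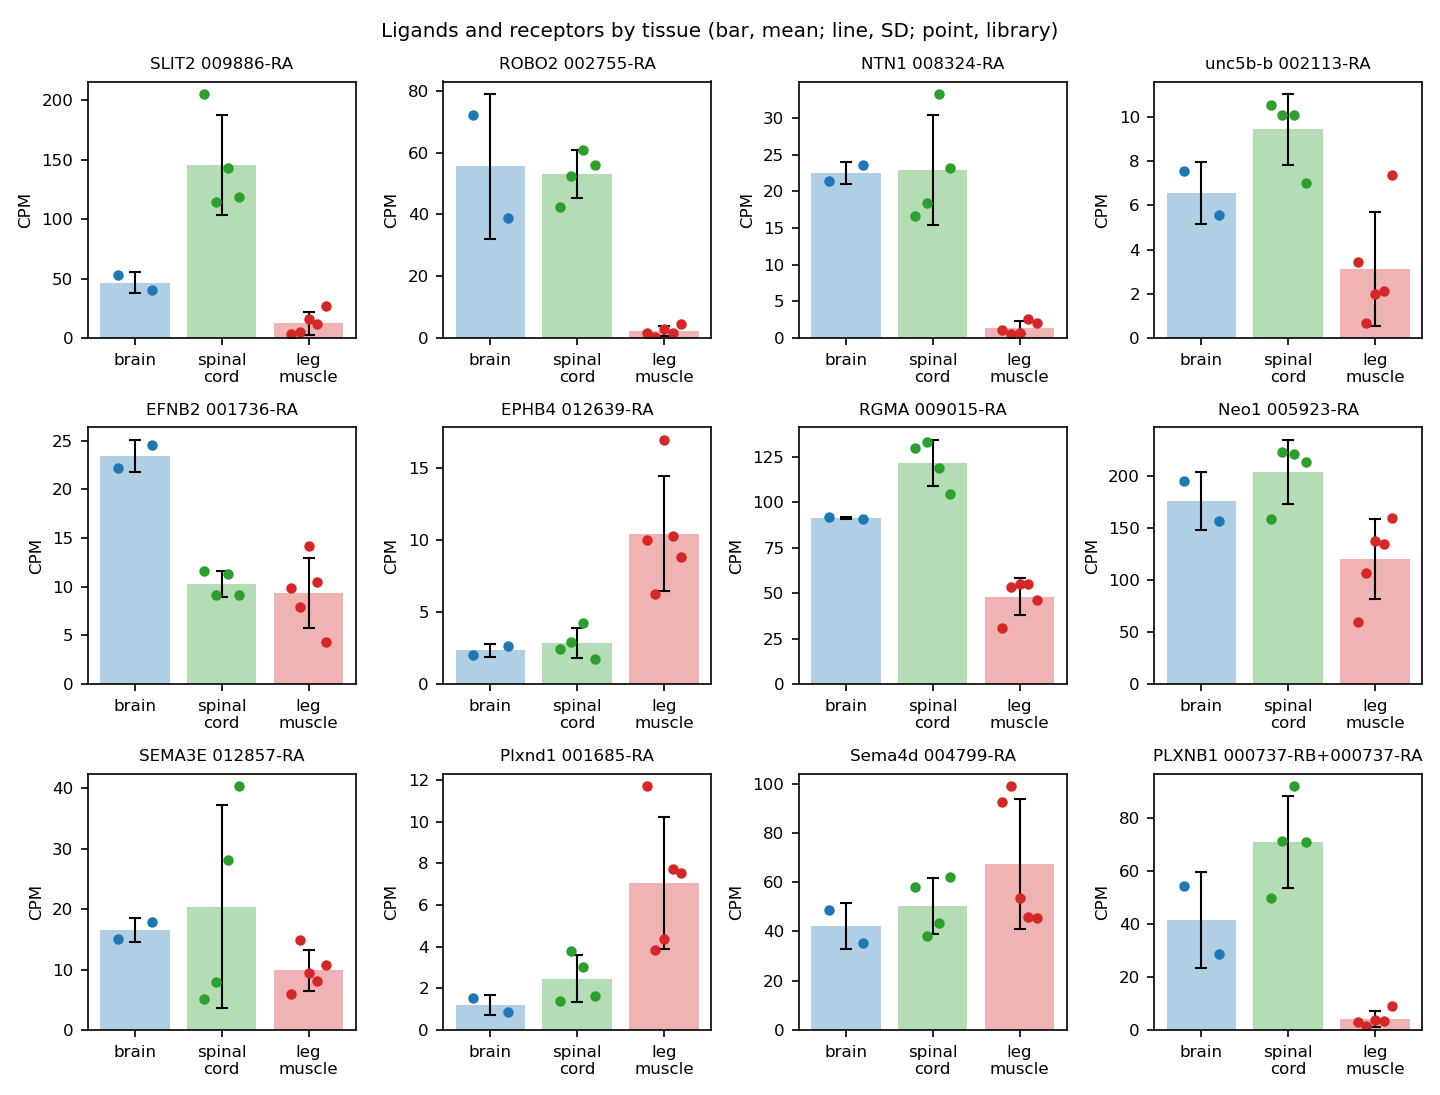
TMM-normalized CPM of ligands beside receptors in the 2, 4 and 5 libraries of brain, spinal cord and leg muscle, with bars for means, lines for SD and points for libraries. SLIT2 and RGMA were highest in spinal cord (145 and 122 CPM on average), but neither was a DEG between spinal cord and brain. ROBO2 and NTN1 were low in leg muscle (2.21 and 1.40 CPM). EPHB4 and Plxnd1 were highest in leg muscle (10.4 and 7.04 CPM). The order of EPHB4 and Plxnd1 was not kept against spinal cord with library totals alone. Log2FC for leg muscle over spinal cord was then -0.0015 for EPHB4 and -0.38 for Plxnd1.

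Ephrins and Eph receptors divided by member. Of 9 Eph receptor rows, of which 3 carry the name Epha2, 5 were higher and 1 lower in brain than in leg muscle (55.6% and 11.1%, where all transcripts gave 28.7% and 21.9%). In leg muscle against spinal cord 3 were higher and 3 lower (33.3% each, near the 25.7% and 29.9% of all transcripts). The receptor epha4-b, whose mammalian counterpart acts in repulsion at the spinal midline and on motor axons in the limb, was at 83.7 and 57.0 CPM in brain, 82.2, 87.8, 84.7 and 66.4 in spinal cord, and 5.18, 4.32, 13.1, 7.75 and 5.01 in leg muscle. Leg muscle lay below both nervous tissues, which overlapped. Log2FC was 3.31 (SE 0.37) for brain over leg muscle, with adjusted p = 2.0e-05 in edgeR, and -3.50 (SE 0.34) for leg muscle over spinal cord, with adjusted p = 4.7e-06.

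The receptor ephb3 showed the same order on a smaller scale, at 27.1 ± 0.838, 35.5 ± 6.10 and 10.02 ± 5.07 CPM in brain, spinal cord and leg muscle. Its Log2FC for leg muscle over spinal cord was -1.82 (adjusted p = 0.00063 in edgeR), and for brain over leg muscle 1.43 (adjusted p = 0.0090, or 0.065 and 0.051 without brain library 1 or 2). EPHA7, a receptor for the ephrins held to the membrane by a lipid anchor, had 99 reads over the brain libraries, 118 over those of spinal cord and 1 over those of leg muscle, in library 5. Per normalized read, brain exceeded leg muscle by a ratio of 133.6 (95% counting interval 23.44 to 5332) and spinal cord by 95.69 (16.84 to 3811). EFNA3, a ligand of this lipid-anchored class, was at 9.81 ± 1.03, 14.0 ± 4.76 and 1.30 ± 0.683 CPM, and leg muscle lay below both nervous tissues (Log2FC 2.91 for brain over leg muscle, adjusted p = 0.00067 in edgeR, and -3.43 for leg muscle over spinal cord, adjusted p = 7.7e-05).

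EFNB2, a transmembrane ephrin of arteries and neurons, was at 22.2 and 24.6 CPM in brain, 11.6, 9.14, 11.3 and 9.17 in spinal cord, and 9.82, 7.95, 14.1, 10.5 and 4.29 in leg muscle. Brain lay above both other tissues, which overlapped. For brain over leg muscle Log2FC was 1.33 (SE 0.35, adjusted p = 0.0078 in edgeR, or 0.057 and 0.082 without brain library 1 or 2), and for leg muscle over spinal cord it was -0.15 (SE 0.30, adjusted p = 0.70). Ephb1 and EPHB5, which carry adjoining IDs and are receptors of the transmembrane ephrins, were higher in brain than in leg muscle at low levels. Ephb1 was at 1.11 ± 0.228 and 0.0848 ± 0.0726 CPM (Log2FC 3.63, adjusted p = 0.0054 in edgeR), and EPHB5 at 1.97 ± 0.524 and 0.220 ± 0.192 CPM (Log2FC 3.15, adjusted p = 0.015, or 0.10 without brain library 1).

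EPHB4, the receptor of veins that pairs with EFNB2, ran the other way. It was at 2.03 and 2.66 CPM in brain, 2.41, 2.94, 4.22 and 1.73 in spinal cord, and 9.97, 6.23, 16.9, 10.2 and 8.80 in leg muscle. Every leg muscle library lay above every other library, with Log2FC -2.15 (SE 0.49, adjusted p = 0.0033 in edgeR) for brain over leg muscle and 1.88 (SE 0.36, adjusted p = 0.00099) for leg muscle over spinal cord, which became -0.32 and -0.0015 with library totals alone. Summed endothelial markers (12 rows, 1 at 0 in each tissue) were 84.0 to 113 CPM in leg muscle, 14.8 to 23.3 in brain and 21.3 to 59.1 in spinal cord. Their part in the result was not tested.

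EPHA2 (008538-RA) was higher in leg muscle (7.03 ± 6.16 CPM) than in spinal cord (1.77 ± 1.07), with Log2FC 1.99 and adjusted p = 0.027 in edgeR. The next ID, Epha2 (008539-RB), was at 7.49 ± 5.44 and 1.82 ± 0.949 CPM, with Log2FC 2.04 and adjusted p = 0.0085 in edgeR. Leg muscle library 3 held the highest value of both, at 17.3 and 16.6 CPM, and leg muscle overlapped with spinal cord in both. For 008538-RA the adjusted p in edgeR was 0.070 without leg muscle library 3, 0.059, 0.057 and 0.052 without spinal cord library 1, 3 or 4, 0.073 without lane 2, and 0.088 without both leg muscle library 5 and spinal cord library 1. With library totals alone, Log2FC fell to 0.24 for 008538-RA and 0.24 for 008539-RB (adjusted p = 0.77 and 0.73 in edgeR). Epha2 reads that fit both transcripts of the second ID gave Log2FC 1.72 and missed the threshold (adjusted p = 0.089 in edgeR). Leg muscle library 3 was the highest leg muscle library for 6 of the 9 Eph receptor rows.

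Plexins divided by gene. PLXNB1 (000737-RB), a receptor for Sema4d in mammals, was at 92.8 and 58.7 CPM in brain, 103, 106, 145 and 134 in spinal cord, and 5.94, 3.37, 5.73, 5.59 and 20.7 in leg muscle. The 3 tissues did not overlap, and leg muscle library 5 stood above the other 4 of its tissue. Between brain and spinal cord this row was not a DEG, with Log2FC -0.69 (SE 0.60, adjusted p = 0.70 in edgeR). Log2FC was 3.19 (SE 0.53) for brain over leg muscle, with adjusted p = 0.00039 in edgeR, and -3.88 (SE 0.49) for leg muscle over spinal cord, with adjusted p = 3.8e-05. Reads that fit both transcripts of this gene gave 3.32 and -4.09, and its transcript RA had 10, 9 and 1 reads in brain, spinal cord and leg muscle.

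The semaphorin receptor plxna3 was at 10.9 ± 4.47, 9.48 ± 2.76 and 0.925 ± 0.975 CPM in brain, spinal cord and leg muscle, with leg muscle below both (Log2FC 3.50, adjusted p = 0.0018 in edgeR, for brain over leg muscle, and -3.30, adjusted p = 0.0011, for leg muscle over spinal cord). Plxnb3 was at 31.0 and 18.5 CPM in brain, 58.7, 80.2, 109 and 108 in spinal cord, and 9.21, 7.25, 36.1, 10.1 and 10.99 in leg muscle. Spinal cord lay above both other tissues, while leg muscle library 3 lay above both brain libraries. Log2FC was -2.59 (SE 0.46, adjusted p = 0.00057 in edgeR) for leg muscle over spinal cord and 0.75 (SE 0.54, adjusted p = 0.27) for brain over leg muscle. Plxnb3 is a plexin of oligodendrocytes in mammals, and 3 oligodendrocyte markers summed to 988 and 1541 CPM in brain, 4150 to 7234 in spinal cord and 69.4 to 280 in leg muscle. Most of this sum was mbp, with means of 1120, 5289 and 114 CPM in the same order. Another of the markers, cnp, had means of 15.1, 17.4 and 7.28 CPM and was a DEG in no comparison. The part of oligodendrocytes in the Plxnb3 difference was not tested.

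All 4 Plxnd1 rows, of consecutive IDs (001684-RA to 001687-RA), were higher in leg muscle than in brain and spinal cord. Whether they are parts of 1 gene is not given in the sources used here, and they are not counted as independent results. Plxnd1 is the plexin of blood vessels and the receptor for Sema3e. Row 001685-RA was at 1.52 and 0.841 CPM in brain, 1.42, 3.79, 3.02 and 1.63 in spinal cord, and 11.7, 3.82, 4.39, 7.75 and 7.54 in leg muscle. The lowest leg muscle library lay just above the highest of spinal cord. In row 001684-RA these tissues overlapped, with the lowest leg muscle library at 1.97 CPM and the highest of spinal cord at 2.12. Over the 4 rows, Log2FC was -2.25 to -2.61 for brain over leg muscle (adjusted p = 0.0047 to 0.016 in edgeR) and 1.48 to 2.05 for leg muscle over spinal cord (adjusted p = 0.0050 to 0.016).

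These Plxnd1 differences were among those most open to the choice of libraries and scaling. Without brain library 2, none of the 4 rows was a DEG between brain and leg muscle (adjusted p = 0.060 to 0.13 in edgeR), and without brain library 1 row 001684-RA was not (0.058). Against spinal cord, row 001684-RA had adjusted p = 0.10 without lane 2 and 0.062 without both leg muscle library 5 and spinal cord library 1, and row 001685-RA had 0.054 without those libraries, all in edgeR. With library totals alone, Log2FC for leg muscle over spinal cord was -0.39, -0.38, 0.0063 and 0.19 in order of ID. The endothelial marker sums given beside EPHB4 moved in the same direction, and their part was not tested. Plxnb2, both PLXNC1 rows and PLXNB1 transcript RA were DEGs in no comparison, with Plxnb2 at 81.1 ± 16.2, 76.2 ± 29.6 and 122 ± 34.1 CPM in brain, spinal cord and leg muscle.

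**Figure D3:**
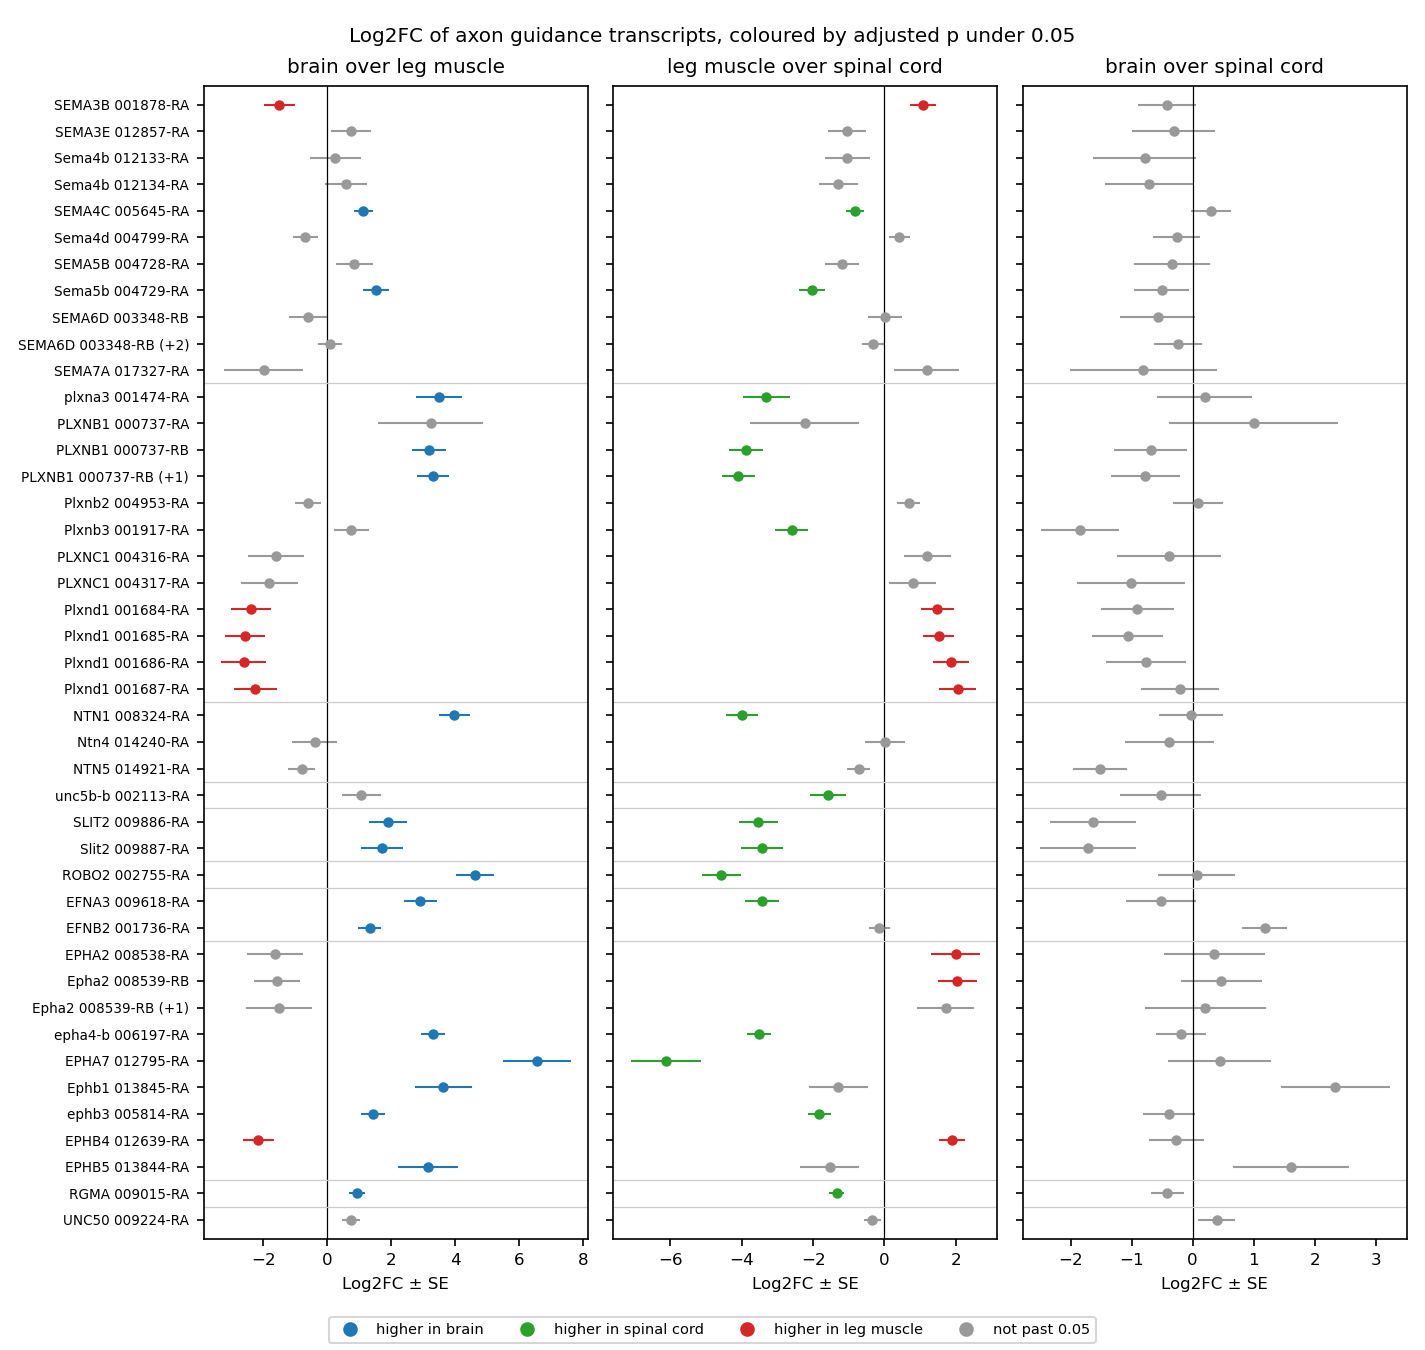
Log2FC ± SE of the 43 tested members for brain over leg muscle, leg muscle over spinal cord, and brain over spinal cord, coloured by the tissue in which a DEG was higher and grey where adjusted p was not under 0.05. Coloured points number 23 and 24 in the left and middle panels and 0 in the right one, and with library totals alone none of the red points remained a DEG.

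Of 11 semaphorin rows tested, 3 were DEGs in each comparison with leg muscle (27.3%, where all transcripts gave 50.7% against brain and 55.6% against spinal cord). SEMA4C, a transmembrane semaphorin, was at 40.5 and 33.0 CPM in brain, 19.9, 37.5, 27.5 and 34.5 in spinal cord, and 14.0, 12.3, 22.8, 14.5 and 20.2 in leg muscle. Leg muscle lay below brain and overlapped with spinal cord library 1. Log2FC was 1.13 (SE 0.30) for brain over leg muscle, with adjusted p = 0.0086 in edgeR, or 0.10 without brain library 1, and -0.83 (SE 0.25) for leg muscle over spinal cord, with adjusted p = 0.015, or 0.067 without spinal cord library 2.

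Sema5b (004729-RA), a semaphorin with thrombospondin repeats, was at 2.14 ± 0.0186, 3.05 ± 0.819 and 0.736 ± 0.215 CPM in brain, spinal cord and leg muscle, and leg muscle lay below both. Log2FC was 1.53 (adjusted p = 0.0091 in edgeR, or 0.057 and 0.052 without brain library 1 or 2) for brain over leg muscle and -2.03 (adjusted p = 0.00047) for leg muscle over spinal cord. The adjoining SEMA5B row (004728-RA) was at 2.15 ± 0.331, 2.72 ± 0.435 and 1.19 ± 0.736 CPM and missed the threshold, with adjusted p = 0.24 and 0.055 in edgeR in the same order. The ratio of reads of 004729-RA to 004728-RA ran from 0.278 to 3.33 over the leg muscle libraries.

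SEMA3B, a secreted semaphorin, was the 1 ligand higher in leg muscle. It was at 6.59 and 12.2 CPM in brain, 4.82, 16.8, 17.9 and 10.8 in spinal cord, and 18.6, 22.8, 26.0, 33.3 and 32.2 in leg muscle. Leg muscle lay above both other tissues, the nearest libraries being at 18.6 and 17.9 CPM. Log2FC was -1.50 (SE 0.49, adjusted p = 0.024 in edgeR) for brain over leg muscle and 1.08 (SE 0.37, adjusted p = 0.027) for leg muscle over spinal cord, and both turned with library totals alone, to 0.27 and -0.77. Adjusted p was 0.19 against brain without brain library 1, and against spinal cord 0.056 without leg muscle library 4, 0.059 without spinal cord library 4, 0.071 without lane 2 and 0.077 without both leg muscle library 5 and spinal cord library 1.

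The other semaphorins were DEGs in no comparison. Sema4d, the ligand of PLXNB1 in mammals, was at 42.1 ± 9.35, 50.4 ± 11.4 and 67.3 ± 26.3 CPM in brain, spinal cord and leg muscle. SEMA6D reads shared by all 3 of its transcripts were at 58.5 ± 12.04, 69.0 ± 14.8 and 55.4 ± 20.7 CPM. Log2FC for these rows was -0.68 and 0.08 for brain over leg muscle, with SE 0.38 for both. SEMA6D reads that fit only 2 of its transcripts, 0, 10 and 6 in the 3 tissues, did not pass the filter.

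SEMA3E, the ligand of Plxnd1 in mice, varied within the spinal cord more than between tissues. It was at 15.1 and 17.9 CPM in brain, 5.17, 7.94, 28.2 and 40.4 in spinal cord, and 6.01, 14.9, 9.51, 8.04 and 10.8 in leg muscle. Spinal cord libraries 1 and 2, of lane 2, lay below both brain libraries, and libraries 3 and 4, of lane 1, above every other library. Along the same split, spinal cord endothelial markers were at 21.3 and 23.5 against 53.6 and 59.1 CPM, Schwann cell markers (4 rows) at 3.29 and 5.97 against 19.7 and 13.9, and muscle fibre markers at 1575 and 1800 against 223 and 58.3. Fibroblast and oligodendrocyte sums also split this way. Of the fibroblast markers, COL1A2 and COL3A1 did, but FBN1, LUM, DCN and pdgfra did not. Levels of pdgfra, for example, were 52.0, 21.1, 35.5 and 48.2 CPM in libraries 1 to 4. Within the Schwann cell sum PRX did not split this way either, at 0.191, 1.16, 6.45 and 0.351 CPM in libraries 1 to 4. Of the endothelial markers, Tie1, CDH5, TEK and Vwf did, but Flt1 did not, at 0.804, 0.936, 1.42 and 0.256 CPM. KDR row 006893-RB did not split this way, at 0.115, 0, 0.262 and 0.0959 CPM. Nor did immune cell markers, at 67.0, 44.4, 53.3 and 155 CPM, or neuronal markers, at 4737, 5874, 5176 and 3779. The part of lane and of these cell types in the SEMA3E levels was not tested. Over all 43 members, 12 (27.9%) had both libraries of 1 lane above both of the other, 8 of them higher on lane 1, against 33.0% of all transcripts.

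Between brain and spinal cord, none of the 43 members had an adjusted p under 0.05, and 6 had an unadjusted p under 0.05. The share of all transcripts with such an unadjusted p, or called by the 2 alternatives that follow, is not given here. These member counts therefore cannot be set against all transcripts. DESeq2 called 0 higher in brain and 2 (NTN5 and Plxnb3) higher in spinal cord, and a fit of these 2 tissues alone called 1 (EFNB2) and 3 (NTN5, Plxnb3 and SLIT2). Of the 6, EFNB2 and Ephb1 were higher in brain, and NTN5, Plxnb3, SLIT2 and Slit2 (009887-RA) were higher in spinal cord. In each of the 6, which were picked for a low p, no brain library overlapped with a spinal cord library. This held for 12 of the 43 members, against 26.2% of all transcripts.

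EFNB2 had Log2FC 1.18 (SE 0.37, adjusted p = 0.15 in edgeR) for brain over spinal cord, or adjusted p = 0.043 without leg muscle library 5. Ephb1 was at 1.28 and 0.953 CPM in brain and 0.459, 0.268, 0.0872 and 0.0639 in spinal cord, with Log2FC 2.34 (SE 0.89, adjusted p = 0.25 in edgeR). EPHB5, next in p among those higher in brain, had Log2FC 1.61 (SE 0.95, adjusted p = 0.51 in edgeR). Plxnb3 had Log2FC -1.84 (SE 0.64, adjusted p = 0.21 in edgeR, or 0.023 without leg muscle library 3) and NTN5 had -1.52 (0.032 without leg muscle library 2). SLIT2 and Slit2 had Log2FC -1.64 (SE 0.70, adjusted p = 0.33 in edgeR) and -1.72 (SE 0.78, adjusted p = 0.36). Of the 19 ligand rows tested, 17 had a negative Log2FC, with a median of -0.42 against 0.00 over all transcripts, and of the 23 receptor rows 13 did, with a median of -0.20. The rows are not independent and none was a DEG. SLIT2, SEMA5B, Sema4b and SEMA6D enter the ligands with more than a single row. Every Log2FC rests on the same 2 brain libraries.

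**Figure D4:**
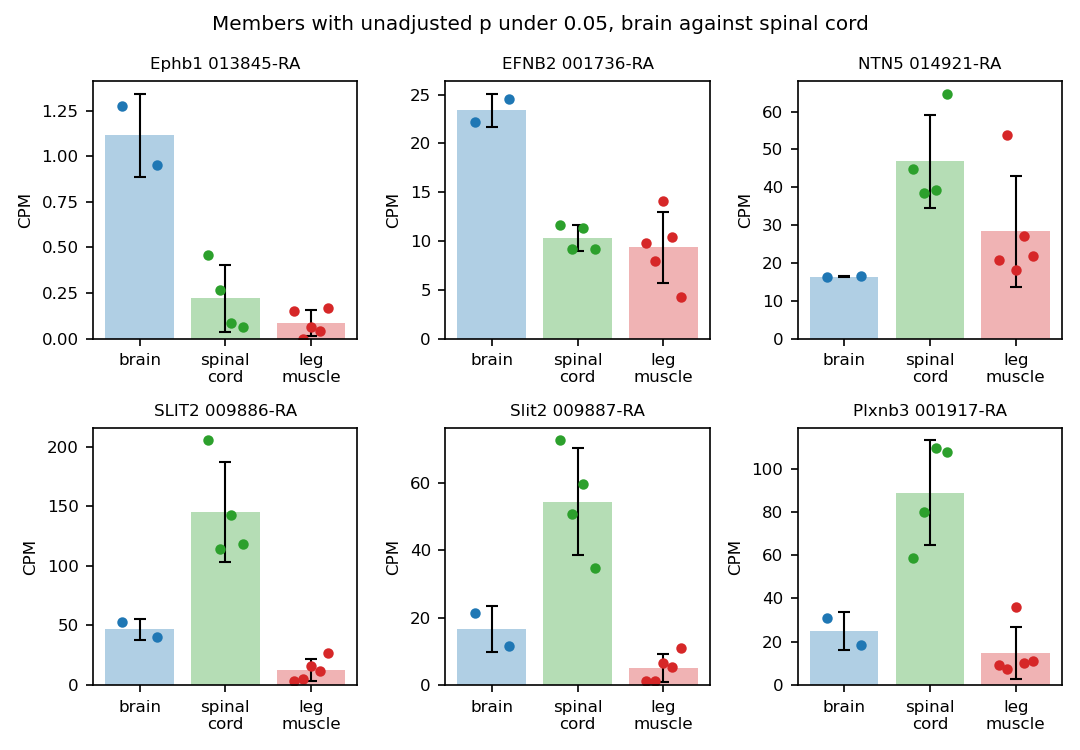
TMM-normalized CPM of the 6 members with an unadjusted p under 0.05 between brain and spinal cord, with bars for means, lines for SD and points for libraries (2, 4 and 5 per tissue). Brain libraries lay above those of spinal cord for EFNB2 and Ephb1 and below them for NTN5, Plxnb3, SLIT2 and Slit2, and none of the 6 had an adjusted p under 0.05 in edgeR.

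A list of 55 gene names of co-receptors and of proteins that carry guidance signals to the cytoskeleton found 34 names in 47 rows, of which 46 were tested. In brain against leg muscle, 28 were higher (60.9%, where all transcripts gave 28.7%) and 3 lower (6.52%, where all gave 21.9%). In leg muscle against spinal cord 4 were higher (8.70%, where all gave 25.7%) and 32 lower (69.6%, where all gave 29.9%). Median Log2FC was 1.97 for brain over leg muscle and -1.84 for leg muscle over spinal cord, against 0.11 and -0.10 over all transcripts. DPYSL2, which carries semaphorin signals to microtubules, was at 608 ± 57.3, 550 ± 124 and 23.7 ± 5.37 CPM in brain, spinal cord and leg muscle (Log2FC 4.68, adjusted p = 3.0e-07 in edgeR, and -4.54, adjusted p = 1.5e-07). RND1, a GTPase that binds plexins, was at 235 ± 11.5, 236 ± 41.5 and 13.2 ± 2.56 CPM (Log2FC 4.16 and -4.16).

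DPYSL4 (000090-RB), of the same family as DPYSL2, was at 26.6 ± 10.3, 40.4 ± 13.2 and 0.232 ± 0.201 CPM. Its reads shared by both transcripts numbered 822 in brain, 2054 in spinal cord and 2 in leg muscle, a ratio of 554.8 (95% counting interval 153.1 to 4589) for brain and 832.8 (230.2 to 6881) for spinal cord. Those higher in leg muscle than in spinal cord were 2 rows of mical2, Pak2 and Mical3 (009621-RA). Of mical2, an enzyme that oxidizes actin, row 004988-RA was at 1.73 ± 0.726, 6.52 ± 1.83 and 119 ± 39.2 CPM in brain, spinal cord and leg muscle (Log2FC 4.19 for leg muscle over spinal cord, adjusted p = 2.3e-06 in edgeR). Pak2, a kinase of the cytoskeleton, had Log2FC 0.93 (adjusted p = 0.0099 in edgeR, or 0.071 without lane 2) and Mical3 1.41 (adjusted p = 0.034), and both turned with library totals alone, to -0.98 and -0.60. For Mical3 (009621-RA), adjusted p was 0.057 to 0.077 without leg muscle library 1 or 4, without spinal cord library 1, 3 or 4, or without lane 2. This row was at 2.71 ± 1.27 CPM in spinal cord and 7.19 ± 3.51 in leg muscle. MICAL3 (009622-RA), of the same name and the next ID, had higher levels and the opposite sign. It was at 40.3 ± 16.5 and 23.3 ± 12.5 CPM and was not a DEG (Log2FC -0.79, adjusted p = 0.14 in edgeR).

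Between brain and spinal cord 1 of the 46 was a DEG (2.17%, near the 2.03% of all transcripts). This was mical2 row 004991-RA, with Log2FC -1.79 (SE 0.40, adjusted p = 0.046 in edgeR). It missed the threshold in 15 alternatives, among them those without brain library 1 or 2, without leg muscle library 2, 3 or 4 and without any single spinal cord library, with adjusted p at 0.051 to 0.48.

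Leg muscle library 5, with the high fibroblast markers, was the highest leg muscle library for 9 of the 16 members that were higher in spinal cord. The share among all transcripts higher in spinal cord is not given here. It was the highest for 15 of all 43 members (34.9%, against 29.0% of all transcripts), and library 3 for 12 (27.9%, against 19.0%). Without library 5, 18 and 6 members were higher in brain and in leg muscle, and 8 and 16 were higher in leg muscle and in spinal cord. Without spinal cord library 1 as well, 4 members were higher in leg muscle than in spinal cord. How the counts of all transcripts changed in these fits is not given here.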

How the data were processed

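RNA reads of 11 libraries of S. parvus (brain 2, spinal cord 4, leg muscle 5) were aligned by the authors to their own assembly with STAR 2.7 and counted with htseq-count. The deposited tables hold these whole-number counts per transcript or set of transcripts, without normalization. How htseq-count treated strand, and its version, are not given in the sources used here, so reads of overlapping genes on opposite strands may not be told apart. The summary lines of htseq-count were left out. Names came from the annotation deposited by the authors, and 4 of the 46 member rows stand for a set of transcripts of 1 gene.

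Groups were taken from the sample labels. In R 4.3.3 with edgeR 4.0.16, rows were kept by filterByExpr (minimum count 10, minimum total 15), which left 13923. Libraries were scaled by TMM, with factors of 1.57 to 2.09 for nervous tissue but 0.389 to 0.752 for leg muscle, and all 11 were fitted by glmQLFit with 1 coefficient per tissue. P-values of the quasi-likelihood test were adjusted by Benjamini-Hochberg over all 13923 rows, with a threshold of 0.05. For tested rows with 1 to 3 reads in leg muscle, ratios of pooled reads carry 95% exact binomial intervals, which cover counting error only. For every pair of libraries of 1 tissue, chi-square over its degrees of freedom was at least 64.7, so none was the same library sequenced again. It cannot show whether libraries came from the same frog. The spread between samples set the precision.

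The members and lists were chosen with earlier results of these data known. Named with values were up to 4 DEGs with the lowest p per family, comparison and direction, the 3 rows with the lowest p per direction between brain and spinal cord, every row in a count of 5 or fewer, rows that did not pass the filter, and up to 4 effector rows per comparison and direction. Genes outside this rule that carry values are Neo1, SEMA3E, Sema4d, Ntn4, Plxnb2, SEMA5B, MICAL3 (009622-RA) and the SEMA6D row shared by 3 transcripts. They were chosen after their values were seen. Alternatives were RLE normalization, library totals alone, no filter, DESeq2 1.42.0, a block for the replicate number, a fit of only the tissues compared, sums per gene, leaving out lane 2, and each library left out. A fit without leg muscle library 5 and spinal cord library 1 was chosen after seeing the data. The fit was also run on simulated counts with a common spread and without the shift in scaling between nervous tissue and leg muscle. That run therefore cannot check the TMM assumption.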

Additional observations from a re-analysis of the deposited data

Results flagged for a closer look

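Among 86 groups of libraries (43 members in spinal cord and in leg muscle), 8 held a library whose gap to its nearest neighbour took an unusually large share of the range of its tissue. The cut-off flags about 1 group in 20 where values follow a normal distribution. CPM near 0 do not, and a lone read among zeros is always flagged, so the 8 cannot be set against that rate. In spinal cord, PLXNB1 transcript 000737-RA was at 0.233 CPM in library 3, with the next at 0.0383, and unc5b-b was low in library 4, at 7.03 CPM, with the next at 10.1. In leg muscle, PLXNB1 000737-RA was at 0.0761 CPM in library 1 and 0 in the others, and SEMA6D 003348-RB was at 0.913 CPM in library 1, with the next at 0.549. NTN5 was at 53.9 CPM in leg muscle library 2, with the next at 27.2, and Plxnb3 at 36.1 CPM in library 3, with the next at 10.99. Leg muscle library 5, whose fibroblast markers were high, held 2 of the 8, PLXNB1 000737-RB at 20.7 CPM, with the next at 5.94, and EPHA7 at 0.0421 CPM, a single read, with 0 in the others. The values at 0.0383 CPM and below, and those of EPHA7 and of PLXNB1 000737-RA in leg muscle, rest on 1 read or none.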

How the results depend on the processing

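Counts of members between nervous tissue and leg muscle held within 1.5 times of their value under RLE normalization, no filter, DESeq2, counts summed per gene and only the tissues compared. With library totals alone, 29 were higher in brain and 0 in leg muscle, and 0 in leg muscle and 31 in spinal cord, while 2 effectors were higher in leg muscle than in spinal cord. All transcripts gave 8805 and 930, and 923 and 9493, in the same order. Log2FC then reversed for SEMA3B (0.27 for brain over leg muscle, -0.77 for leg muscle over spinal cord), Pak2 (0.12 and -0.98) and, for leg muscle over spinal cord, Plxnd1 001684-RA (-0.39) and 001685-RA (-0.38), and Mical3 009621-RA (-0.60), while that of EPHB4 came to -0.0015, with adjusted p = 1.00 in edgeR. The scaling itself moved the median of all transcripts, by 1.86 and -1.85.

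With each library left out in turn, 10 to 18 members were higher in brain than leg muscle (10 without brain library 1, 11 without brain library 2) and 2 to 7 in leg muscle (2 without brain library 2, 4 without brain library 1), and 6 to 9 and 15 to 18 were higher in leg muscle and in spinal cord. Apart from library totals, 10 of 23 named DEGs in brain against leg muscle and 18 of 24 in leg muscle against spinal cord passed in every alternative. Without lane 2, members higher in leg muscle than spinal cord numbered 5 and effectors 2, and without leg muscle library 5 and spinal cord library 1 these members numbered 4. Counts over all transcripts are not given here for any fit with libraries left out, so these changes cannot be set against a background. The cause was not tested.

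In brain against spinal cord, members higher in brain and in spinal cord numbered 0 and 2 by DESeq2, 1 and 3 with only the tissues compared, and 0 to 1 in each direction with a library left out. By RLE, effectors numbered 1 and 0, where all transcripts gave 174 and 118. For the other fits the counts of all transcripts are not given here, so member and effector counts cannot be set against them. Effectors numbered 1 and 2 by DESeq2, 3 and 0 with only the tissues compared, and 1 and 2 without leg muscle library 5 and spinal cord library 1. Those higher in spinal cord numbered 0 with no filter and 0 without lane 2, and both directions ran from 0 to 2 with a library left out. The cause was not tested.

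With replicate numbers as a block, 19 and 6 members were higher in brain and in leg muscle, 5 and 18 in leg muscle and in spinal cord, and 0 between brain and spinal cord, where 0 effectors were higher in spinal cord. EPHA2 008538-RA and Plxnd1 001684-RA and 001685-RA then missed the threshold for leg muscle over spinal cord (adjusted p = 0.074, 0.072 and 0.065 in edgeR). Deviations of same-numbered libraries correlated at -0.049 to 0.15 between leg muscle and spinal cord (4 pairs), 0.103 to 0.217 between brain and leg muscle (2 pairs) and 0.125 to 0.131 between brain and spinal cord (2 pairs). Pairs with different numbers ran from -0.277 to 0.277, beyond any same-numbered pair. With 2 brains, the deviations of 1 mirror those of the other (0.103 and -0.103 with leg muscle library 1). Not every same-numbered pair exceeded 0.1 and the labels name no frog, so whether a number marks a shared animal is not known. With 2 brains, differences against brain that are small beside the spread could not be detected at this sample size.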
